A study of Mus musculus with 12 samples.

Results

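Genes of metabolite and purine sensing were followed through the RNA-seq libraries of mouse neutrophils. Gpr35, Gpr84, Hcar2 and Ffar2 encode G protein-coupled receptors for small metabolites, Adora2a and Adora2b encode adenosine receptors, P2ry2 and P2rx4 encode receptors for extracellular ATP, and Entpd1 encodes the ectoenzyme CD39. These 9 genes, of 55335 listed in each library, were chosen by symbol with their levels in these libraries known. Their levels and differences are therefore given as a description, without a test of the members as a group. Where members are counted past the thresholds of a test run over all genes, these counts are a description too.

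The libraries came from 3 groups of 4 mice, all of the FVB background, 10 weeks old and kept in SOPF housing. PyMT tumor-associated neutrophils (TANs) were sorted from mammary tumors of FVB-PyMT mice, PyMT-Cxcr2-/- TANs from tumors of FVB-PyMT-Cxcr2-/- mice, and WT BM neutrophils from bone marrow of FVB WT mice without tumors. The polyoma middle T transgene acts in the mammary epithelium, and Cxcr2, the receptor for the neutrophil chemokines, is deleted in the whole animal rather than in neutrophils alone. WT BM neutrophils differ from PyMT TANs in tissue, in the presence of a tumor and in how cells were freed. Tumors were minced and digested, while marrow was spun out of the bones. From PyMT-Cxcr2-/- TANs they differ in Cxcr2 genotype as well. The parts of these in a difference between TANs and BM cannot be told apart here.

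Cells release ATP and metabolites into the extracellular space, above all in stressed or inflamed tissue, and leukocytes read them through surface receptors. CD39 cuts ATP and ADP to AMP, CD73 (encoded by Nt5e) cuts AMP to adenosine, and the receptors of Adora2a and Adora2b answer adenosine through Gs and cAMP, a pathway known to restrain neutrophils. P2Y2 couples ATP and UTP to Gq and guides neutrophil movement, while P2X4 is a cation channel opened by ATP. Among the metabolite receptors, HCAR2 binds hydroxybutyrate and niacin and FFAR2 binds acetate and other short-chain fatty acids. GPR84 binds medium-chain fatty acids, and GPR35 answers tryptophan metabolites such as kynurenic acid.

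In mm10, as annotated by GENCODE M21, Gpr35 lies at chr1:92950865-92986391 and Gpr84 at chr15:103308235-103310612. Hcar2 lies at chr5:123863570-123865499, Ffar2 at chr7:30818348-30823775, Adora2a at chr10:75316877-75334784 and Adora2b at chr11:62248984-62266453. P2ry2 lies at chr7:100996568-101012866, P2rx4 at chr5:122707544-122729738 and Entpd1 at chr19:40612366-40741602. Of the 9, Gpr84 alone shares exon bases with another gene, 681 bases with Gm49482 on the opposite strand, so its counts are uncertain. All 9 are protein coding, and the counts are summed over their exons.

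RefSeq start site windows of 300 bases (250 before the start and 50 after it, GRCm38.p6) were found for 7 of the 9 members, 13 windows in all. The windows shown, 1 per gene, belong to the member receptors that differed most from BM in each direction (Gpr35 and Adora2b higher, Ffar2 lower). P2ry2, whose difference from BM was small, is shown beside them. Where a gene had more than 1 window, the one shown held as many of the motifs below as any of its windows. Capitals mark matches on either strand to 4 motifs. The motif ACGTG is 1 form of the core bound by hypoxia-inducible factors and a part of the E-box CACGTG. The other form of that core, GCGTG, was not searched, so a window without ACGTG may still hold it. The motif TGANTCA is bound by the factor AP-1, the motif TTGCNNAA by factors of the C/EBP family and the motif GAGGAAG by the factor PU.1.
Gpr35, chr1:92978653-92978952, plus strand: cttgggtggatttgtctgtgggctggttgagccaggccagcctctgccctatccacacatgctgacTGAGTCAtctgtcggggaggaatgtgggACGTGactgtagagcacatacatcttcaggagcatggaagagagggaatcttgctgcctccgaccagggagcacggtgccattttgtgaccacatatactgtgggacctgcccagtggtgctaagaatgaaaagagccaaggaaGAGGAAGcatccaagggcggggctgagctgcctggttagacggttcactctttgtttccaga
Adora2b, chr11:62248734-62249033, plus strand: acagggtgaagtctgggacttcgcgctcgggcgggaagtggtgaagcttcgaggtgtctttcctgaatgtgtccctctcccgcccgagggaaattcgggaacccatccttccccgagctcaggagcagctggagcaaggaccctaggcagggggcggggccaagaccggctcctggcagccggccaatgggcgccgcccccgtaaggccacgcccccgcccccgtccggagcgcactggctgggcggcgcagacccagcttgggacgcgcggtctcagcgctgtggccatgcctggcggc
P2ry2, chr7:101011949-101012248, minus strand: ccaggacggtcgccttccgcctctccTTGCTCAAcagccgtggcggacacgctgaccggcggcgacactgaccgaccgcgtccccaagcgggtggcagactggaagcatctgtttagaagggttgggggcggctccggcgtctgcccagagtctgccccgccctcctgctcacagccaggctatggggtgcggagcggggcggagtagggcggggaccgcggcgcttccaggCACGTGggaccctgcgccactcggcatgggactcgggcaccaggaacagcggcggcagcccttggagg
Ffar2, chr7:30823726-30824025, minus strand: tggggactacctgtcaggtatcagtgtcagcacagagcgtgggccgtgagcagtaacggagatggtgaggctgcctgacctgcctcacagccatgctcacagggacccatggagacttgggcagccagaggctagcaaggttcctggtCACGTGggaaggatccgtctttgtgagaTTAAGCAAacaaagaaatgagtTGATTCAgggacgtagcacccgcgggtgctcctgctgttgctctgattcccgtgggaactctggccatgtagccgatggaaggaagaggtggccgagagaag

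The Gpr35 window shown held TGANTCA from base -184, ACGTG from base -156 and GAGGAAG from base -12, counted from the start site, and the other Gpr35 window, chr1:92972869-92973168, held none. Ffar2 held CACGTG, which matches ACGTG on each strand in overlap, from base -102, TTGCNNAA from base -74 and TGANTCA from base -52. P2ry2 held TTGCNNAA from base -224 and CACGTG from base -18, and Adora2b held none of the 4 motifs. Of all 32817 RefSeq windows of this length, 19.6% held ACGTG, 7.81% TGANTCA, 10.8% TTGCNNAA and 13.6% GAGGAAG. No window of the 7 members held TGACGTCA (the cAMP response element), the NF-kB motif or TTCNNNGAA (STAT), which 1.79%, 1.63% and 8.29% of all windows held. These letter matches are descriptions of the windows and not binding sites.

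Libraries held 25032704 to 51351569 counts on genes, and 3 counts in a library corresponded to 0.0575 to 0.0997 CPM (counts scaled to library size with TMM factors over the 12 libraries). Cxcr2, the deleted gene, ranged from 8.97 to 10.1 CPM in PyMT-Cxcr2-/- TANs, from 1029.5 to 1535.9 CPM in PyMT TANs and from 1817.6 to 2249.9 CPM in WT BM neutrophils. All 8 neutrophil markers were present above 3 counts in every library, but their summed level was 10283 to 16696 CPM in PyMT TANs, 17736 to 29209 CPM in PyMT-Cxcr2-/- TANs and 73713 to 98184 CPM in WT BM neutrophils. Of the 8, 7 fell in each kind of TAN against BM, the deleted Cxcr2 among them in PyMT-Cxcr2-/- TANs. The exception, Csf3r, averaged 3737, 4827 and 3955 CPM in these groups. Markers of macrophages summed to 1258 to 2518, 1234 to 2056 and 196 to 283 CPM in the same order, and those of mammary epithelium to 47.4 to 432.7, 84.1 to 306.3 and 0.0599 to 0.514 CPM. Immature neutrophil markers summed to 403 to 681, 1907 to 6338 and 28496 to 45359 CPM. Of the macrophage markers 7 of 7 rose in both kinds of TAN against BM, none was at 0 in a group, and in BM the epithelial markers Krt8, Krt14, Krt5 and Csn3 were at 0. The part of these other cells in the differences between TANs and BM was not tested, and in bulk samples fewer cells of a type and less RNA per cell cannot be told apart.

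**Figure D1:**
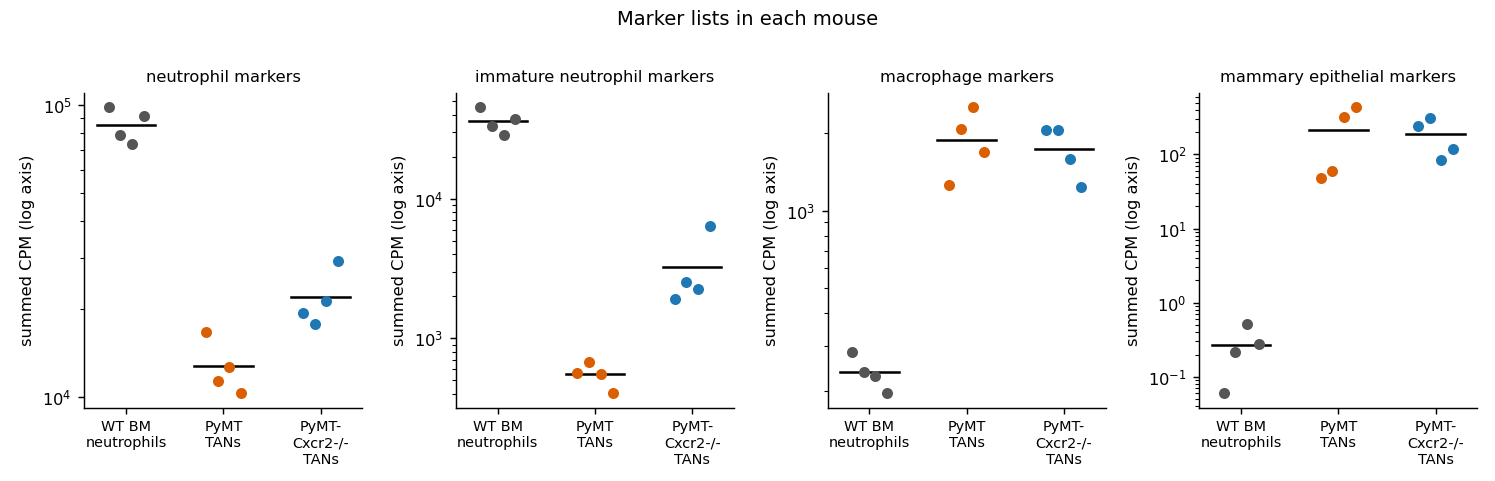
Summed CPM of the neutrophil, immature neutrophil, macrophage and mammary epithelial marker lists in each mouse (log axes); points are mice, in replicate order from left to right, and lines are group means. Both kinds of TAN sit above WT BM neutrophils for macrophage and epithelial markers and below them for neutrophil markers.

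Among the member metabolite receptors, Gpr35 differed most from BM. Its level in PyMT TANs was 388, 313, 319 and 329 CPM, in PyMT-Cxcr2-/- TANs 288, 267, 317 and 273 CPM, and in WT BM neutrophils 19.95, 22.3, 23.3 and 18.8 CPM. The 8 TAN libraries stood close together and far above the 4 BM libraries: the lowest PyMT TAN value was 13.4-fold above the highest BM value, and the lowest PyMT-Cxcr2-/- TAN value 11.4-fold. Against BM the log2 fold change was 4.08 (SE 0.13) in PyMT TANs and 3.88 (SE 0.12) in PyMT-Cxcr2-/- TANs. Between the 2 kinds of TAN it was -0.27 (SE 0.13), with overlapping values.

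Hcar2 had the largest number of counts of the 9. PyMT TANs held 867, 825, 816 and 759 CPM, PyMT-Cxcr2-/- TANs 904, 750, 1373 and 1293 CPM, and WT BM neutrophils 111, 202, 179 and 204 CPM. Every TAN library was above every BM library, and replicates 3 and 4 of PyMT-Cxcr2-/- TANs were above all PyMT TANs while replicate 2 was below them. For Hcar2 the log2 fold change was 2.31 (SE 0.18) for PyMT TANs and 2.75 (SE 0.23) for PyMT-Cxcr2-/- TANs against BM, and 0.37 (SE 0.19) between the TANs. Hcar1, its neighbour in the family and the lactate receptor, averaged at most 0.0161 CPM per kb of exon in any group.

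Ffar2 was the one member with lower levels in TANs than in BM. WT BM neutrophils held 47.2, 37.6, 33.6 and 38.1 CPM, PyMT TANs 7.22, 4.24, 1.93 and 2.05 CPM, and PyMT-Cxcr2-/- TANs 3.16, 2.37, 3.12 and 8.25 CPM. No TAN library reached the BM range, and replicate 1 of PyMT TANs and replicate 4 of PyMT-Cxcr2-/- TANs were the highest in their groups. The log2 fold change against BM was -3.27 (SE 0.38) in PyMT TANs and -3.09 (SE 0.34) in PyMT-Cxcr2-/- TANs. Replicate 4 of PyMT-Cxcr2-/- TANs also held the most immature neutrophil marker RNA among the 8 TAN libraries, 6338 CPM where the other 3 of its group held 1907 to 2526 CPM, and the part of such cells in its Ffar2 value was not tested.

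Gpr84 varied from mouse to mouse within each group. PyMT TANs held 20.3, 14.5, 30.5 and 15.8 CPM, PyMT-Cxcr2-/- TANs 15.04, 10.4, 16.5 and 18.9 CPM, and WT BM neutrophils 15.8, 8.99, 9.14 and 14.6 CPM. All 3 groups overlapped, and replicate 3 of PyMT TANs was the highest library. Gpr84 had a log2 fold change against BM of 0.82 (SE 0.29) in PyMT TANs, falling to 0.53 without that library, and 0.45 (SE 0.22) in PyMT-Cxcr2-/- TANs.

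Both adenosine receptors were low and both were higher in TANs. Adora2b stood at 6.33, 2.11, 2.69 and 4.70 CPM in PyMT TANs, 5.35, 2.53, 3.07 and 3.31 CPM across PyMT-Cxcr2-/- TANs and 0.120, 0.311, 0.400 and 0.224 CPM in WT BM neutrophils. Every TAN value was above every BM value, with log2 fold changes of 3.97 (SE 0.55) and 3.86 (SE 0.39). Replicate 1 was the highest in PyMT TANs, and it held the least macrophage marker RNA of that group, 1258 CPM. In PyMT-Cxcr2-/- TANs replicate 1 was also the highest, and there it held the most, 2056 CPM. The part of macrophages in Adora2b was not tested.

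Adora2a had the lowest mean of the 9 per length of exon in all 3 groups, though in BM it overlapped Adora2b. It stood at 1.38, 0.474, 1.33 and 1.03 CPM in PyMT TANs, 1.72, 1.08, 1.87 and 2.02 CPM across PyMT-Cxcr2-/- TANs and 0.300, 0.187, 0.343 and 0.391 CPM in WT BM neutrophils. TANs and BM did not overlap, but replicate 2 of PyMT TANs was only 1.21-fold above the highest BM value. The log2 fold change against BM was 1.85 (SE 0.63) in PyMT TANs and 2.56 (SE 0.37) in PyMT-Cxcr2-/- TANs, and 0.64 (SE 0.51) between the TANs.

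The ATP receptors differed less. P2ry2 stood at 108, 90.9, 75.5 and 62.2 CPM in PyMT TANs, 78.3, 68.0, 79.5 and 102 CPM across PyMT-Cxcr2-/- TANs and 63.9, 60.2, 59.9 and 60.1 CPM in WT BM neutrophils. BM values were narrow, PyMT TANs overlapped them through replicate 4, and PyMT-Cxcr2-/- TANs did not. The log2 fold change was 0.54 (SE 0.15) and 0.54 (SE 0.11) against BM; with each library's trend over GC content and gene length removed it was 0.02 and -0.20, where the median of all genes was -0.15 and -0.40.

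P2rx4 stood at 30.4, 43.4, 45.3 and 43.6 CPM in PyMT TANs, 45.1, 58.0, 39.1 and 35.6 CPM across PyMT-Cxcr2-/- TANs and 15.5, 24.2, 19.5 and 20.5 CPM in WT BM neutrophils. Every TAN library was above every BM library, and replicate 1 of PyMT TANs lay apart below its group. The log2 fold change was 1.12 (SE 0.19) and 1.28 (SE 0.17). In PyMT TANs the lowest P2rx4 value was in the library with the least macrophage marker RNA (replicate 1, 1258 CPM) and the highest in that with the most (replicate 3, 2518 CPM). In PyMT-Cxcr2-/- TANs the lowest was likewise in the library with the least (replicate 4, 1234 CPM), and the part of macrophages in P2rx4 was not tested.

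Entpd1 stood at 338, 339, 287 and 427 CPM in PyMT TANs, 369, 368, 359 and 414 CPM across PyMT-Cxcr2-/- TANs and 114, 112, 124 and 110 CPM in WT BM neutrophils. The TAN groups overlapped each other and both lay above BM, with the lowest TAN value 2.31-fold above the highest BM value. The log2 fold change was 1.68 (SE 0.14) in PyMT TANs and 1.84 (SE 0.10) in PyMT-Cxcr2-/- TANs.

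**Figure D2:**
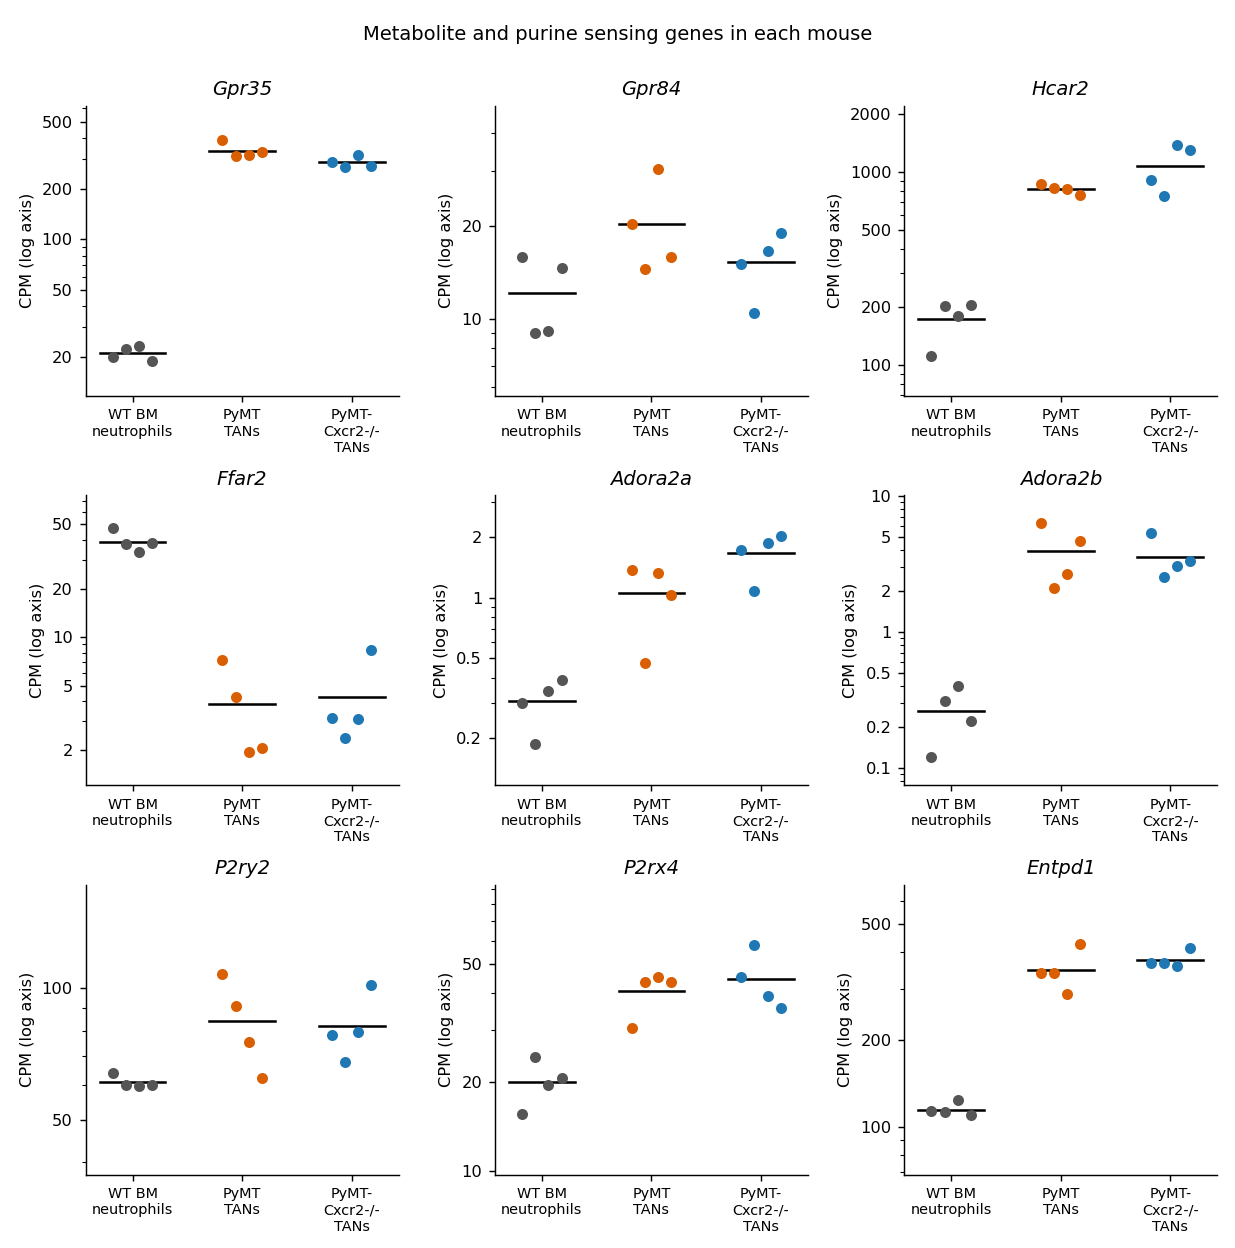
CPM of the 9 genes in each mouse (log axes, scaled per gene); points are mice, in replicate order from left to right, and lines are group means. Gpr35, Hcar2, Adora2a, Adora2b, P2rx4 and Entpd1 lie above WT BM neutrophils in all 8 TAN libraries, and Ffar2 lies below them.

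Against BM, 7 of the 9 members were higher and 1 lower past the thresholds of edgeR's quasi-likelihood test (adjusted p under 0.05 and at least 1.5-fold) in PyMT TANs, where 30.1% and 23.2% of all tested genes were. In PyMT-Cxcr2-/- TANs 6 were higher and 1 lower, where 34.4% and 25.1% of all genes were. Values did not overlap for 6 higher members and 1 lower member in PyMT TANs, where 28.4% of all genes were higher without overlap and 29.7% lower (58.2% together). In PyMT-Cxcr2-/- TANs this held for 7 and 1 members, beside 32.5% and 33.3% of all genes (65.8% together). The median log2 fold change of the 9 was 1.68 and 1.84, and that of all genes 0.09 and 0.09. With GC content and gene length removed, 5 members were higher and 1 lower in PyMT TANs, where the calls of Gpr84 and Adora2a were lost. Over all genes that setting called 4426 higher and 5273 lower. Both comparisons use the same 4 BM libraries, and the members were chosen with these values known.

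Between the 2 kinds of TAN all 9 genes overlapped, log2 fold changes ran from -0.45 (Gpr84, SE 0.27) to 0.64 (Adora2a, SE 0.51), and their median was 0.08, with -0.07 for all genes. Past the thresholds were 0 of 9 by edgeR and 0 by DESeq2, 0 had an unadjusted p under 0.05 in edgeR, and 1.98% of all genes passed, 1.38% higher and 0.596% lower. Of all genes, 11.9% did not overlap, 6.89% higher and 5.05% lower. The precision differed between members: the interval of 2 SE around the difference ran from -0.20 to 0.37 for Entpd1, from -0.91 to 1.11 for Ffar2 and from -0.38 to 1.65 for Adora2a. A 2-fold higher level lies within the last 2 of these, so a small difference was not shown for every member.

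**Figure D3:**
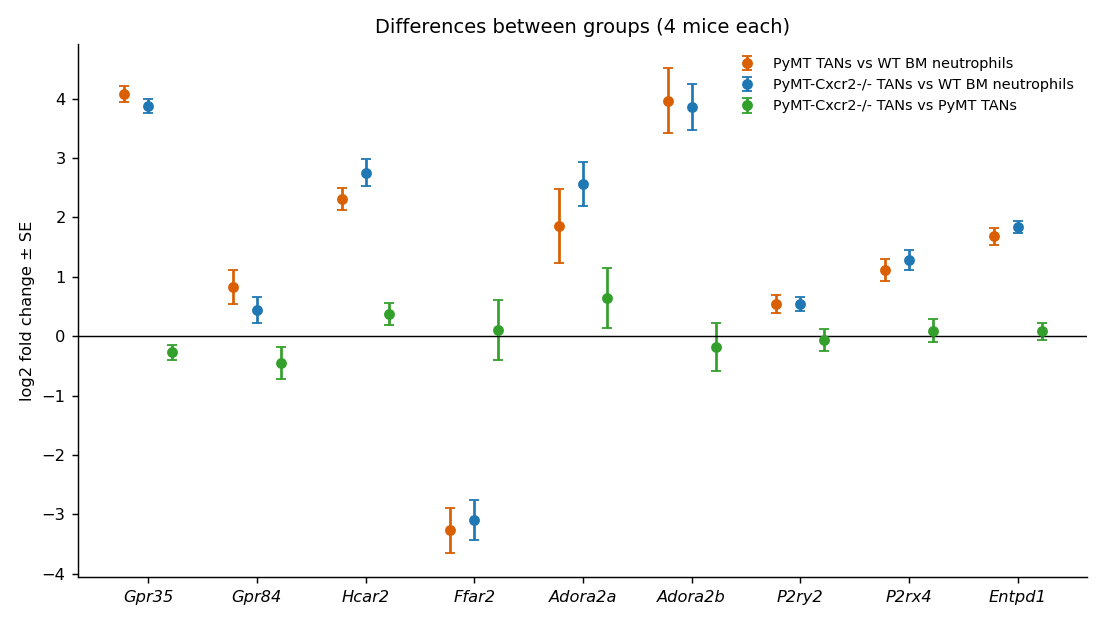
Log2 fold change of the 9 genes in the 3 comparisons (points) with its SE (bars), 4 mice in each group. Against WT BM neutrophils the changes run from -3.27 for Ffar2 to 4.08 for Gpr35, and between the 2 kinds of TAN they stay between -0.45 and 0.64.

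The order of the members, in CPM per kb of exon, changed between BM and tumor. In WT BM neutrophils it was Hcar2 (90.1 ± 22.6, SD, n = 4), Entpd1 (20.6 ± 1.12), P2ry2 (15.5 ± 0.486), Ffar2 (14.02 ± 2.06), Gpr84 (7.04 ± 2.07), Gpr35 (4.36 ± 0.430), P2rx4 (2.84 ± 0.510), Adora2b and Adora2a. P2ry2 and Ffar2 overlapped, as did the 2 adenosine receptors, and the other neighbours did not. In PyMT TANs Hcar2 (423.1 ± 22.8) was followed by Gpr35 (69.7 ± 7.09) and Entpd1 (62.3 ± 10.4), which overlapped, then by P2ry2 (21.4 ± 5.02) and Gpr84 (11.8 ± 4.20), which also overlapped, P2rx4 (5.79 ± 0.988), Adora2b (2.15 ± 1.05), Ffar2 (1.38 ± 0.889) and Adora2a (0.344 ± 0.136). Adora2b and Ffar2 overlapped as well. In PyMT-Cxcr2-/- TANs Entpd1 (67.66 ± 4.397) stood before Gpr35 (59.2 ± 4.62), again overlapping, and otherwise the order was that of PyMT TANs. Gpr35 thus went from rank 6 in BM to 2 and 3 in TANs, and Ffar2 from 4 to 8.

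Within their families the members took different shares of the RNA, given as a share of the family's CPM per kb. Of the 4 adenosine receptors, Adora3 held 77.7% ± 7.74 (SD, n = 4) in WT BM neutrophils and Adora2b 8.65% ± 3.92. In PyMT TANs Adora3 held 44.3% ± 8.72 and Adora2b 36.2% ± 8.76, and in PyMT-Cxcr2-/- TANs 39.7% ± 3.39 and 33.8% ± 6.51. Adora2a held 6.003%, 5.80% and 9.63% in the same order of groups. The family's summed level was 1.65, 5.83 and 5.65 CPM per kb. Adora3 shares 779 exon bases with Tmigd3 on its strand, so its level is uncertain.

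Of the P2X channels, P2rx1 held 69.5% ± 7.65 in WT BM neutrophils and P2rx4 27.6% ± 6.59. In TANs P2rx4 held the largest share, 51.3% ± 3.28 in PyMT TANs and 54.7% ± 3.25 in PyMT-Cxcr2-/- TANs, followed by P2rx7 with 38.0% ± 4.17 and 35.8% ± 5.51, which held 0.751% in BM. The summed level of the family was 10.4 ± 0.876, 11.4 ± 2.42 and 11.6 ± 2.33 CPM per kb in BM, PyMT TANs and PyMT-Cxcr2-/- TANs, so its make-up differed more than its sum. Among P2Y receptors, P2ry2 held 32.7% ± 1.05 in BM, 24.2% ± 3.72 and 27.5% ± 3.36 in TANs, after P2ry13, a receptor for ADP, with 52.3%, 43.6% and 39.5%.

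Entpd1 did not have the largest mean share of the NTPDase family everywhere. That family was summed over all 8 Entpd genes, not over cell-surface enzymes alone. Entpd1 held 53.5% ± 3.53 of it in WT BM neutrophils and 54.2% ± 1.56 in PyMT-Cxcr2-/- TANs. The rest of the sum differed: Entpd5 and Entpd7 held 18.8% and 16.2% in BM, and 2.80% and 2.84% in PyMT-Cxcr2-/- TANs. In PyMT TANs Entpd1 held 39.1% ± 8.80, and Entpd3 held 56.9% ± 8.96. Their shares there overlapped, from 30.5% to 51.1% for Entpd1 and from 44.9% to 65.8% for Entpd3. Entpd4 had no counts in any group, so it adds nothing to the family's sum. It shares 2458 exon bases with genes on the opposite strand, and whether its transcript was absent is uncertain. Entpd3 held 8.49% ± 1.43 in BM and 39.1% ± 1.86 in PyMT-Cxcr2-/- TANs. Among receptors for free fatty acids, Ffar2 held 66.6% ± 4.61 in BM and Gpr84 32.8% ± 4.61, whereas Gpr84 held 86.8% ± 4.54 in PyMT TANs and 85.5% ± 5.29 in PyMT-Cxcr2-/- TANs.

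**Figure D4:**
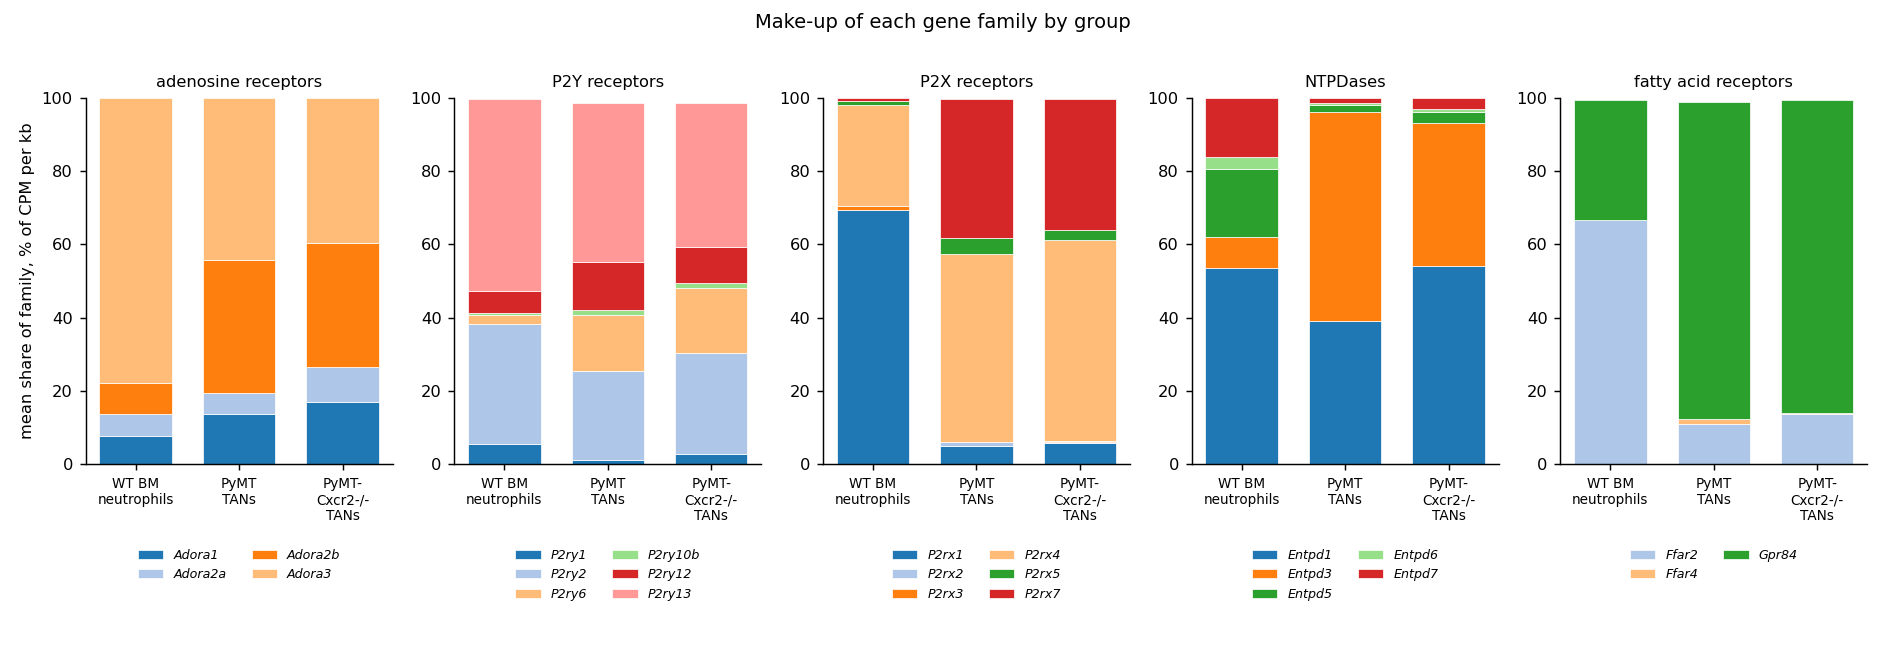
Mean share of each gene in the summed CPM per kb of its family (%), in 5 families and 3 groups of 4 mice; genes under 1% in all groups are left out. In the P2X family P2rx1 takes 69.5% in WT BM neutrophils, and P2rx4 with P2rx7 most of the family in TANs.

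The surrounding pathway was read from 5 lists with 97 genes, none of them members. Against BM, 34 rose and 23 fell of 78 tested in PyMT TANs, and 41 rose and 19 fell of 81 tested in PyMT-Cxcr2-/- TANs. Together 73.1% and 74.1% of the tested genes passed, beside 53.3% and 59.5% of all genes. By list the share ran from 44.4% (other metabolite receptors) to 83.3% (other purine receptors) in PyMT TANs. In PyMT-Cxcr2-/- TANs it ran from 63.6% (other metabolite receptors) to 100% (ATP release channels). With the trends over GC content and gene length removed the split was 27 higher and 29 lower in PyMT TANs and 32 higher and 34 lower in PyMT-Cxcr2-/- TANs. Adjusted p-values below are Benjamini-Hochberg values of edgeR's test over all genes, given for PyMT TANs and then for PyMT-Cxcr2-/- TANs.

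Of 16 other genes listed as purine receptors 12 were tested, and 8 rose and 2 fell in PyMT TANs, and 9 rose and 1 fell in PyMT-Cxcr2-/- TANs. P2ry10 and P2ry10b were listed by symbol and not by ligand, and P2ry10b was among those that rose in PyMT TANs. P2rx7, the ATP-gated channel upstream of the inflammasome, went from 0.474 ± 0.222 CPM (SD, n = 4) in BM to 26.3 ± 7.65 and 25.1 ± 7.62 CPM, a log2 fold change of 5.87 (SE 0.41, adjusted p = 6.39e-07) and 5.83 (SE 0.35, adjusted p = 1.97e-08). P2ry6, a UDP receptor, rose by 3.61 (SE 0.19, adjusted p = 1.05e-07) and 3.64 (SE 0.19, adjusted p = 4.29e-09) on the log2 scale. P2ry14, which binds UDP sugars, rose by 5.34 (SE 0.59, adjusted p = 1.7e-05) and 3.72 (SE 0.33, adjusted p = 3.79e-07). P2rx1, the fast ATP channel, fell from 19.1 ± 3.79 CPM in BM to 1.502 ± 0.811 and 1.56 ± 1.07 CPM, a log2 fold change of -3.59 (SE 0.36, adjusted p = 9.16e-06) and -3.50 (SE 0.36, adjusted p = 2.92e-06). P2rx7 shares 119 exon bases with a microRNA gene on its strand.

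Among 22 genes of nucleotide breakdown and adenosine handling, 9 rose and 5 fell of 18 tested in PyMT TANs, and 12 rose and 3 fell of 19 tested in PyMT-Cxcr2-/- TANs. Entpd3, like Entpd1 a cell-surface NTPDase, went from 12.2 ± 1.84 CPM in BM to 349.8 ± 101.0 and 183.6 ± 19.8 CPM, a log2 fold change of 4.91 (SE 0.22, adjusted p = 4.54e-08) and 4.02 (SE 0.14, adjusted p = 1.99e-10). Cd38, which cleaves NAD, rose by 5.22 (SE 0.66, adjusted p = 4.52e-05) and 5.01 (SE 0.52, adjusted p = 3.49e-06). Enpp1, a nucleotide pyrophosphatase, went from 0.137 ± 0.0917 CPM to 11.1 ± 5.53 and 13.8 ± 6.48 CPM (adjusted p = 1.32e-05 and 2.72e-07). Its relative Enpp3 had no counts in BM and held 3.99 ± 3.92 CPM (0.510 to 7.58) and 3.79 ± 1.74 CPM (2.10 to 5.42) in TANs. These means were at least 181-fold and 172-fold above a floor of 3 counts over the 4 BM libraries, and the lower mice were nearer to it. Nt5e, the next enzyme after CD39, was lower: 148 ± 9.28 CPM in BM, 78.2 ± 17.9 CPM in PyMT TANs, where it fell by 0.84 on the log2 scale (SE 0.16, adjusted p = 0.000796), and 93.8 ± 10.9 CPM in PyMT-Cxcr2-/- TANs, where the log2 fold change of -0.54 (SE 0.11) was under the fold threshold. Nt5e and P2ry13 were picked for mention after their values were seen.

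Of 8 ATP release genes 7 were tested, and 4 rose and 1 fell in PyMT TANs, and 6 rose and 1 fell in PyMT-Cxcr2-/- TANs. The connexin gene Gja1 went from 0.0818 ± 0.0651 CPM in BM to 10.8 ± 9.59 and 7.28 ± 3.65 CPM (adjusted p = 0.000171 and 3.38e-07). Gjb2, also a connexin, had no counts in BM and held 3.62 ± 3.14 CPM (1.04 to 8.11) and 4.88 ± 2.18 CPM (2.58 to 7.33) in TANs. Its means were at least 164-fold and 222-fold above the same floor. Both connexins are also made by epithelium and fibroblasts. Fibroblast markers, like the epithelial ones, were higher in TANs, with sums of 0.807 to 12.9 CPM in PyMT, 1.79 to 34.2 CPM in PyMT-Cxcr2-/- and 0.168 to 1.77 CPM in BM libraries, and their part in the connexins was not tested. Calhm2, of the calcium homeostasis modulator channels, rose by 2.61 (SE 0.44, adjusted p = 0.000372) and 2.48 (SE 0.32, adjusted p = 1.39e-05) on the log2 scale, and 436 of its exon bases overlap Pdcd11 on the other strand. Slc17a9, the vesicular nucleotide transporter, fell from 52.3 ± 5.24 CPM to 2.54 ± 1.92 and 6.81 ± 2.56 CPM, a log2 fold change of -4.28 (SE 0.70, adjusted p = 0.000317) and -2.82 (SE 0.20, adjusted p = 8.59e-08).

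Of 19 other metabolite receptors 9 were tested in PyMT TANs, of which 4 rose and 0 fell, and 11 in PyMT-Cxcr2-/- TANs, of which 6 rose and 1 fell. The share that passed was 44.4% in PyMT TANs, below the 53.3% of all genes, and 63.6% in PyMT-Cxcr2-/- TANs, beside 59.5%. In PyMT TANs the list's genes with an unadjusted p under 0.05 numbered 5, and DESeq2 called 4 higher and 1 lower. Gpr132, which answers lactate and oxidised lipids, went from 4.56 ± 1.48 CPM in BM to 94.6 ± 19.2 and 129.9 ± 21.7 CPM, a log2 fold change of 4.46 (SE 0.27, adjusted p = 2.49e-07) and 4.95 (SE 0.23, adjusted p = 5.29e-09). Gpr183, the oxysterol receptor, rose by 3.13 (SE 0.29, adjusted p = 5.31e-06) and 3.45 (SE 0.24, adjusted p = 4.89e-08). Gpr34, a lysophosphatidylserine receptor, rose by 2.62 (SE 0.37, adjusted p = 0.000111) and 2.46 (SE 0.29, adjusted p = 7.54e-06), and the proton sensor Gpr4 by 2.35 (SE 0.44, adjusted p = 0.00077) and 2.28 (SE 0.24, adjusted p = 1.67e-06). Gpr55 averaged 3.87 ± 1.43 CPM in PyMT-Cxcr2-/- TANs, where it passed against BM (adjusted p = 1.62e-07), 0.335 ± 0.401 CPM in PyMT TANs, where it was not tested, and 2 counts in all 4 BM libraries.

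In the list of G proteins and cAMP signalling 32 of 32 genes were tested, with 9 higher and 15 lower in PyMT TANs and 8 higher and 13 lower in PyMT-Cxcr2-/- TANs. With GC content and gene length removed these counts were 5 and 20, and 5 and 24. Over all genes, too, that setting called more lower than higher. Rgs1, which shortens G protein signals, went from 8.49 ± 2.82 CPM in BM to 510.1 ± 71.3 and 351.8 ± 99.9 CPM, a log2 fold change of 5.99 (SE 0.29, adjusted p = 5.98e-08) and 5.49 (SE 0.31, adjusted p = 5.96e-08). Pde4b, which breaks down cAMP, rose by 3.09 (SE 0.16, adjusted p = 1e-07) and 3.43 (SE 0.15, adjusted p = 8.23e-10). Adcy6, an adenylyl cyclase that makes cAMP, rose by 3.99 (SE 0.76, adjusted p = 0.000857) and 4.95 (SE 0.43, adjusted p = 3.8e-07), with 605 exon bases shared with an opposite-strand gene. Crem, a cAMP-responsive transcription factor, rose by 2.13 (SE 0.26, adjusted p = 3.3e-05) and 2.18 (SE 0.13, adjusted p = 1.61e-08). Prkar2b, a regulatory subunit of protein kinase A, went from 129.8 ± 10.3 CPM in BM to 19.7 ± 6.57 and 31.1 ± 6.54 CPM, a log2 fold change of -2.64 (SE 0.22, adjusted p = 2.03e-06) and -1.94 (SE 0.13, adjusted p = 4.08e-08).

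**Figure D5:**
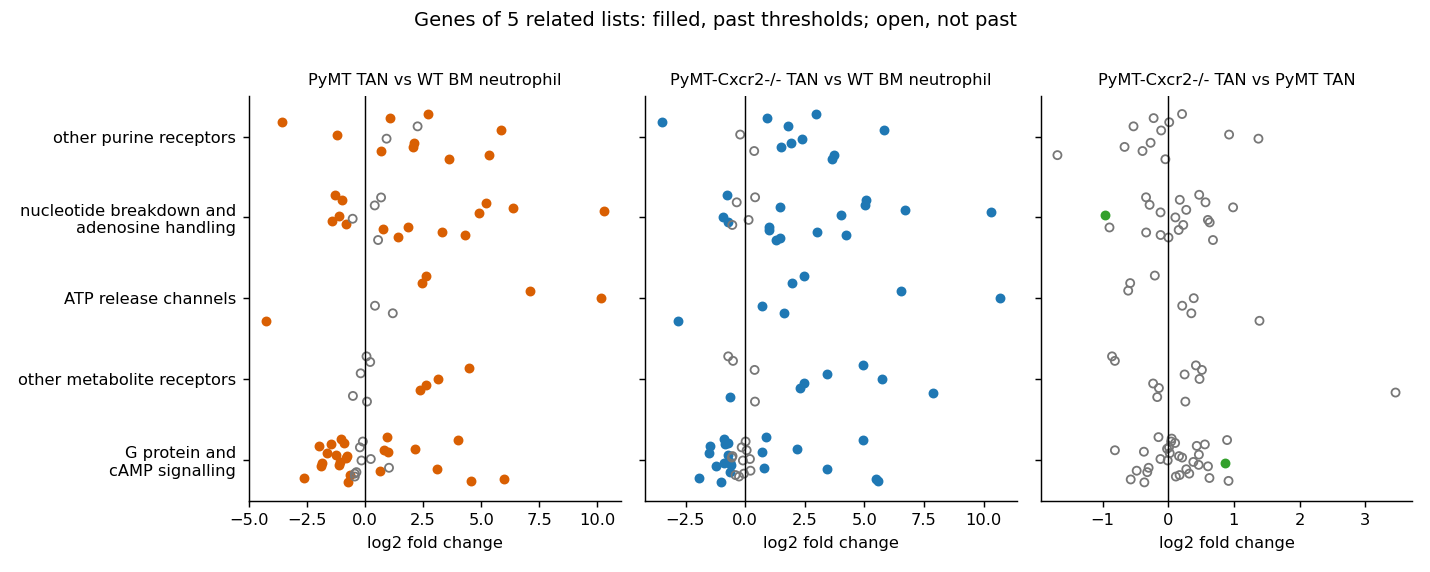
Log2 fold change of each tested gene of the 5 lists in the 3 comparisons; filled points passed the thresholds and open points did not. Against WT BM neutrophils 57 of 78 and 60 of 81 genes are filled, and between the 2 kinds of TAN only Entpd3 and Gng2 are, on a narrower axis.

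Between the 2 kinds of TAN, 2 of 81 tested list genes passed, 2.47% beside 1.98% of all genes, a share near the background. Gng2, a G protein gamma subunit, stood at 24.5 to 35.3 CPM in PyMT TANs, 49.7 to 61.4 CPM in PyMT-Cxcr2-/- TANs and 105 to 121 CPM in BM, and rose by 0.86 on the log2 scale (SE 0.15, adjusted p = 0.0182) in PyMT-Cxcr2-/- TANs. Entpd3 ranged from 252 to 491 CPM in the PyMT group and from 156 to 203 CPM without Cxcr2, with a log2 fold change of -0.96 (SE 0.19, adjusted p = 0.0263). Both calls were sensitive: Gng2 kept its call in 12 of 18 alternative settings and Entpd3 in 9, and without PyMT TAN replicate 2 or PyMT-Cxcr2-/- TAN replicate 3 or 4 neither passed. In addition Entpd3 did not pass without PyMT TAN replicate 3 or PyMT-Cxcr2-/- TAN replicate 1 or 2. Gng2 shares 897 exon bases with an opposite-strand gene. Of the immature neutrophil markers, 3 of 5 tested were higher past the thresholds in PyMT-Cxcr2-/- TANs. Camp, Ngp and Ltf had higher means there, but Elane, Mpo and Prtn3 did not. These averaged 0.285, 0.770 and 1.20 CPM, beside 0.293, 1.99 and 1.59 CPM in PyMT TANs. The part of immature cells in these differences was not tested. No gene of the purine receptor, ATP release or other metabolite receptor lists passed in edgeR as described above, with 4, 0 and 2 genes at an unadjusted p under 0.05 and 2, 0 and 0 called by DESeq2. Other edgeR settings did call some: Gpr55 without a count filter, with 12 libraries in one fit, with GC content, gene length and replicate block together, or without PyMT TAN replicate 1 or 3; P2ry14 without a count filter, with 12 libraries in one fit or without PyMT TAN replicate 3; and P2ry12 with 12 libraries in one fit. Gpr55, with 2.45 to 5.44 CPM in PyMT-Cxcr2-/- TANs and 0 to 0.914 CPM in PyMT TANs, did not overlap and had the largest log2 fold change of the lists between the TANs, 3.46 (SE 0.84, adjusted p = 0.0626).

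Genes whose level ran most like each member's were found by the root mean square difference of centred log2 CPM over the 12 libraries, among 11088 genes. Nearest to Gpr35 were Ccrl2 (0.205), Maff (0.247) and Cd14 (0.261), and nearest to Hcar2 were E530011L22Rik (0.213), Nfkbid (0.240) and Gm23722 (0.241). Cd14, the co-receptor for endotoxin, had 417 CPM in BM and 5305 and 6297 CPM in TANs. Adora2b ran closest to Jmy (0.359), Cxcl2 (0.414), which encodes a neutrophil chemokine, and Ppp1r13l (0.430), and Adora2a to F3 (0.380), the tissue factor gene, Gm20517 (0.385) and Prkce (0.414). Entpd1 ran closest to Tiparp (0.123), Arih2 (0.126) and Etf1 (0.133), P2ry2 to Sqstm1 (0.124), Edem2 (0.125) and Metrnl (0.127), and P2rx4 to Tmem65 (0.145), Cog7 (0.151) and Lrpap1 (0.169). For Ffar2 the nearest were Gm38379 (0.420), Mcf2l (0.432) and Xk (0.433), and for Gpr84 Fbxl15 (0.252), Mex3c (0.265) and Pecam1 (0.266). All 12 libraries fall in the same 3 groups, and the distances describe these libraries alone.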

How the data were processed

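Neutrophils were sorted as CD45+ CD11b+ Ly6G+ F4/80- cells after CD11b selection, from tumors or from bone marrow of femur and tibia, 1 library per mouse as the labels give it. The authors removed ribosomal RNA, made directional libraries, read both ends on a NovaSeq, mapped the trimmed reads on mm10 by STAR and used HTSeq to obtain raw counts for each gene, which are the deposited values. The strand setting and the annotation of the counting are not given in the sources used here. Between 46.3% and 60.5% of the entries in each file were assigned to no gene, most of them (32.0% to 52.5%) as no feature, and were left out.

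Of the 55335 identifiers, 55154 matched GENCODE M21 and gave symbols, positions and exon lengths. For each of 3 comparisons edgeR 4.0.16 (R 4.3.3) was fitted to those groups alone, with TMM factors, filterByExpr and robust quasi-likelihood, and genes were called at 1.5-fold or more with an adjusted p (Benjamini-Hochberg) under 0.05. The SE is the log2 fold change over the square root of F, and log2 CPM used a prior count of 2. DESeq2 1.42.0 was an alternative, and the code was tested on simulated data. In that test, for the comparison between the TANs, edgeR recovered 32 of 200 genes (16%) changed by 1 on the log2 scale. At a change of 3 it recovered 144 of 200 (72%). Genes without a call between the TANs may thus still differ. Depth limits genes near the floor of 3 counts, and a floor covers counting error only.

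The members, the 5 lists, the markers and the tests were chosen with earlier results of these data known. Named list genes are up to 4 per list and comparison with the largest change past the thresholds and an average log2 CPM of at least 0, and all that passed between TANs. The 3 nearest genes per member had an average log2 CPM of at least 1. Replicates of a group differed by more than sampling noise. Mice that share a replicate number between groups are separate animals.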

Additional observations from a re-analysis of the deposited data

Results flagged for a closer look

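Of 97 sets of 4 mice (a gene in a group), 8 held 1 library that stood apart from the other 3 by Dixon's ratio, and chance gives about 1 in 20. Among the members, Ffar2 was 8.25 CPM in replicate 4 of PyMT-Cxcr2-/- TANs and at most 3.16 CPM in the others, P2rx4 was 30.4 CPM in replicate 1 of PyMT TANs and at least 43.4 CPM in the others, and P2ry2 was 63.9 CPM in replicate 1 of WT BM neutrophils and at most 60.2 CPM in the others. P2rx1 was 3.15 CPM in replicate 4 of PyMT-Cxcr2-/- TANs, the library that was also apart for Ffar2, and at most 1.21 CPM in the others. Adcy6 was 9.55 CPM in replicate 2 of that group and at most 6.11 CPM in the others.

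The remaining 3 were low levels in WT BM neutrophils. Enpp1 was at 0 in replicate 2, Gpr4 was 1.17 CPM in replicate 1, and Gpr55 was 0.0559 CPM in replicate 4 and 0 in the others.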

How the results depend on the processing

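Each comparison was refitted under 18 alternatives. Against BM, the counts of genes past the thresholds, over all genes and over the 5 lists, stayed within 1.5 times the values reported, and the named list genes kept direction and call. The members kept their direction, except P2ry2. With GC content and gene length removed its log2 fold change was 0.02 in PyMT TANs, still positive, and -0.20 in PyMT-Cxcr2-/- TANs. With the replicate block as well it was -0.01 and -0.23. Without GC and length trends the share of higher genes among calls went from 56.4% to 45.6% for PyMT TANs, from 57.9% to 39.6% for PyMT-Cxcr2-/- TANs and from 69.9% to 56.0% between the TANs. In PyMT-Cxcr2-/- TANs that setting took the nucleotide list from 12 higher and 3 lower to 9 and 5, and upper quartile factors gave 8 higher members in PyMT TANs. Adora2a in PyMT TANs was past the thresholds in 8 of 17 alternatives, lost with GC and length removed (1.38), with no count filter, with the replicate block, without any 1 of the 4 BM libraries (log2 fold change 1.63 to 1.95) or without PyMT TAN replicate 1 (1.69), and Gpr84 in 13 of 18, lost with GC and length removed (0.79) and without BM replicate 2 (0.65) or 3 (0.66) or PyMT TAN replicate 3 (0.53). Between the TANs, 365 genes passed, beside 594 with no count filter, 91 with GC and length removed, 886 with 12 libraries in one fit and 987 by DESeq2, and for list genes 2 became 4, 0, 7 and 8. With 1 mouse left out the counts ran from 23 (without PyMT TAN replicate 2) to 513 and from 0 to 4, and fell over 1.5 times without PyMT TAN replicate 4 (189) or PyMT-Cxcr2-/- TAN replicate 1 (213), 2 (227), 3 (83) or 4 (96). The cause was not tested. No member passed between the TANs under any alternative. There the sign held in 14 of 18 alternatives for Ffar2, 16 for P2ry2, 17 for Adora2b and P2rx4 and all 18 for the others.

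Replicate numbers are shared between groups, but same-numbered mice did not deviate together (mean correlation -0.14 between the TANs, -0.04 and 0.05 against BM), so no pairing was used. With the replicate block 13 genes and 0 list genes passed between the TANs, and with GC content and length also removed 30 and 1.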
